A study of Mus musculus with 10 samples.

Results

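Cdkn1a and its fellow p53 target genes were read from 15 probes of a liver expression array, chosen as every probe whose platform annotation named Cdkn1a, Mdm2, Ccng1, Btg2, Phlda3, Zmat3 or Trp53inp1, among 45281 probes in all. The list held 9 genes; the other 2, Bax and Trp53, had no probe under those symbols in the annotation used and were not analysed here. Liver RNA came from 10 FVB mice, an inbred laboratory strain, each hybridised to its own array. The labels describe 6 mice as overexpressing LKB1 from a wild-type plasmid, injected into the tail vein 1 time per week over 8 weeks, and the other 4 as untreated; mice and livers labelled so are called LKB1 and untreated below. The arrays did not show a raised LKB1 transcript: Stk11, the gene of LKB1, differed by 0.06 ± 0.08 (SE) on the log2 scale, with a 95% interval from -0.12 to 0.24 (limma, adjusted p = 0.930) and overlapping groups. Whether its probe reads the transcript of the plasmid is not known here. The untreated mice had no stated control plasmid, so the injections, the plasmid and any added LKB1 cannot be told apart, and no label names the promoter that drove LKB1. The genes were proposed with the fold changes of this same comparison already known, so every difference between the groups below is a description and is not read as evidence.

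p53, the product of Trp53, is a transcription factor that is held low by the ubiquitin ligase MDM2 and is released by DNA damage and other stresses. It then raises a set of target genes that stop the cell cycle, start apoptosis or feed back on p53 itself. Cdkn1a encodes p21, an inhibitor of cyclin-dependent kinases that halts the cell cycle, and in liver its transcript also varies with time of day and answers to inputs other than p53. Mdm2 and Ccng1 (cyclin G1) are targets that feed back on p53, Btg2 and Phlda3 encode antiproliferative proteins, Zmat3 an RNA-binding zinc finger protein, and Trp53inp1 a stress-induced p53 cofactor that also acts in autophagy. LKB1, the product of Stk11, is a tumour suppressor kinase that activates AMPK.

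The arrays detected between 15374 and 16839 probes each (detection p under 0.05). A probe was tested where at least 4 arrays detected it, which held for 16803 probes representing 9725 genes and for 10 of the 15 probes described here. Values are log2 intensities after background correction and quantile normalization. Stk11 was at 9.47 to 9.76 in untreated livers and at 9.56 to 9.82 in those labelled LKB1. This probe did not bear out the label, but it is not known to read the plasmid transcript, so it cannot decide whether LKB1 was overexpressed. Of 8 hepatocyte markers 6 were detected on all 10 arrays, among them Alb, Ttr and Apoa1, which encode secreted proteins made mainly by liver. The titles name hepatocytes, yet 7 of 9 listed markers of Kupffer cells, the macrophages of liver, were also detected on all 10 arrays. In such bulk RNA, fewer cells of a type and less RNA per cell cannot be told apart. Between the groups 0 of 16803 probes passed an adjusted p of 0.05 (limma, Benjamini-Hochberg), which is 0% of those tested, and 1119 probes (6.66%) had an unadjusted p under 0.05, with 3.48% of all probes higher in LKB1 livers. Of the 10 probes described here 0 passed the adjusted threshold and 3, those being 2 of Cdkn1a and 1 of Mdm2, had an unadjusted p under 0.05, all higher; since the genes were chosen on this comparison nothing is read from that share. Background probes put untreated replicates 1 and 2 with LKB1 replicates 1, 2 and 4 (set A), and untreated replicates 3 and 4 with LKB1 replicates 5, 6 and 7 (set B). The sets serve below as a technical block, because the labels name no chip.

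The promoter windows of the genes most used below are printed because p53 acts on its targets through paired half-sites in their DNA. The windows run from 250 bases before to 50 bases after a RefSeq transcription start (assembly GRCm38.p6), read 5′ to 3′ on the gene's strand, and capitals mark each exact match to the p53 half-site consensus. The Cdkn1a gene has 2 such starts, at chr17:29090729-29091028 and chr17:29093519-29093818 on the plus strand, and the windows of Mdm2 and Ccng1 lie on the minus strand at chr10:117710709-117711008 and chr11:40755237-40755536.
Cdkn1a, first start: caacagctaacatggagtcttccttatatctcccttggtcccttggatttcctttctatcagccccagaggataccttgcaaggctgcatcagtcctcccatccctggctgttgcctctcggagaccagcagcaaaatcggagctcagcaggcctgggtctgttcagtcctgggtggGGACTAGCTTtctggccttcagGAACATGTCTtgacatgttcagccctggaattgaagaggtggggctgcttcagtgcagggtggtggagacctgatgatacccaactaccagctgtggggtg
Cdkn1a, second start: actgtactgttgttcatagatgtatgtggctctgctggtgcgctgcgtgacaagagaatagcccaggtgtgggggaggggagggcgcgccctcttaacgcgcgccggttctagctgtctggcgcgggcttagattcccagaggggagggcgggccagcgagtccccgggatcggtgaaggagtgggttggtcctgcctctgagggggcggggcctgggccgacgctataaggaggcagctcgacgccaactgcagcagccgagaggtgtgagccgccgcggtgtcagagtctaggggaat
Mdm2: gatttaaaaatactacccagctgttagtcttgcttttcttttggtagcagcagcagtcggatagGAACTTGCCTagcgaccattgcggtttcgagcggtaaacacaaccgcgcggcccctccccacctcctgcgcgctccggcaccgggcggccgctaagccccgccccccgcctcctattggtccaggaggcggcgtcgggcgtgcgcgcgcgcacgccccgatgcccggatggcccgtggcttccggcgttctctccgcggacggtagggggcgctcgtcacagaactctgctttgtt
Ccng1: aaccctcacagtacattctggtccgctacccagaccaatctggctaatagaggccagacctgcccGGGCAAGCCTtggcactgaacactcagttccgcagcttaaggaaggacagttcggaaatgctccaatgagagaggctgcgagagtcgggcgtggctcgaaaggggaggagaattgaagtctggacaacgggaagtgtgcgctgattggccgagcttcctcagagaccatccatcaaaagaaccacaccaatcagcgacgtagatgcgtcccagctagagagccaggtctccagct
The first Cdkn1a window held 2 exact half-sites, GGACTAGCTT beginning 73 bases and GAACATGTCT beginning 51 bases before the start. The latter is followed directly by tgacatgttc, which differs from the consensus at 1 base, so that both stretches stand side by side as in a full p53 site. Ccng1 held GGGCAAGCCT, 185 bases before its start, directly preceded by agacctgccc with 1 difference, and Mdm2 held the single half-site GAACTTGCCT, 186 bases before its start. Among all 32851 windows of this length, 8.36% held an exact half-site, 0.359% held at least 2, and 0.0883% held one with such a neighbour directly beside it. The second Cdkn1a window and the windows of Btg2 and Phlda3 held 0 exact half-sites; Zmat3 and Trp53inp1 had no window in the RefSeq table. Neither the E-box CACGTG (7.15% of windows) nor AGGTCA on either strand (16.3% of windows), the cores bound by clock factors and by ROR and REV-ERB receptors, was found in the Cdkn1a windows. These matches describe letters in a window and carry no measurement of binding. Sequence outside the windows, such as introns, was not searched, so a gene may hold paired half-sites that are not shown here.

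Cdkn1a was higher in the livers labelled LKB1, in which the Stk11 probe, not known to read the plasmid transcript, was not measurably raised. On its brightest probe the 4 untreated mice had log2 intensities of 5.23, 4.67, 5.52 and 5.46. The 6 LKB1 mice ranged from 5.56 to 7.55 with a median of 6.69. All 6 LKB1 values lay above all 4 untreated values, but narrowly, since LKB1 replicate 1 exceeded untreated replicate 3 by only 0.04, and LKB1 replicate 6 stood highest. The means were 5.22 ± 0.39 (SD, n = 4) and 6.58 ± 0.65 (SD, n = 6), a log2 difference of 1.36 ± 0.30 (SE) with a 95% interval from 0.71 to 2.01, or 2.57-fold. With this processing it was the largest increase among the 9725 genes, and 2 of the 16803 probes (0.0119%) were higher by 2-fold or more. In the deposited intensities, which are not normalized between arrays, the groups overlapped: untreated replicate 3 was at 64.0 and LKB1 replicate 1 at 55.2, within a span from 28.4 to 164.

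The other Cdkn1a probes differed in the same direction by less. On the second probe the untreated mice had 4.69, 4.82, 4.96 and 4.998, and the LKB1 mice ranged from 5.05 to 6.05 with a median of 5.66. The groups again did not overlap, with a gap of 0.05, and the log2 difference was 0.72 ± 0.17 (SE), or 1.65-fold. Every LKB1 array lay above every untreated array in 96 of the 16803 probes tested (0.571%) and in 0.524% of genes, and both tested Cdkn1a probes were among these. The third probe was not well above background in any untreated liver and was detected in 3 of 6 LKB1 livers, with overlapping groups. Its log2 difference was 0.30 ± 0.20 (SE), with an interval from -0.13 to 0.74, so a lower level in LKB1 livers is not excluded. The untreated arrays were also taken at the lowest signal detected on each, or at the probe's own value where that was higher. The LKB1 mean was then 1.05-fold higher, a description that sets no lower bound. Over the 10 mice the first and second probe correlated at r = 0.96, as a description of 2 probes read from the same RNA. Each tested Cdkn1a probe was detected in 3 of 4 untreated livers, so the untreated level lay near background, where the added offset compresses a difference: with an offset of 50 in place of 16 the first probe differed by 0.88 and the second by 0.39.

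The Cdkn1a difference was of the same size in both array sets, 1.37 in set A and 1.36 in set B on the first probe and 0.74 and 0.71 on the second. Leaving out LKB1 replicate 6, the highest mouse, gave 1.17 on the first probe, and leaving out LKB1 replicate 1, the lowest of its group, gave 1.57. The spread among LKB1 mice was 1.66 times that among untreated mice on the first probe and 2.58 times on the second.

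**Figure D1:**
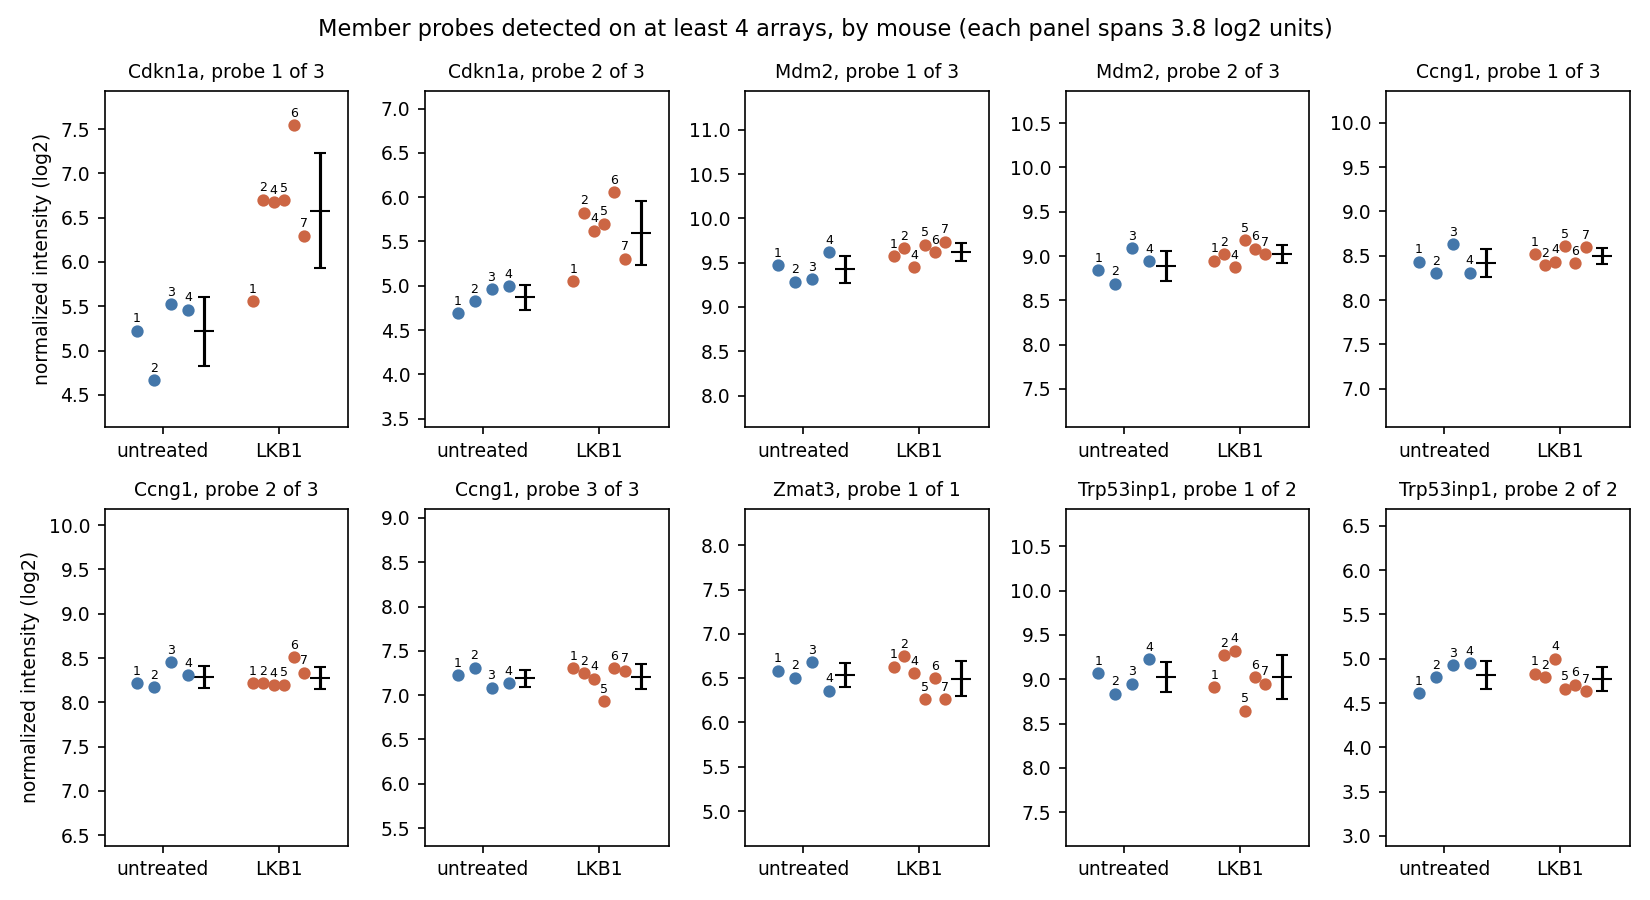
Normalized log2 intensity of the 10 tested probes in each of the 10 mice (untreated blue, LKB1 orange, numbers are replicate numbers, black marks are mean and SD; every panel spans the same log2 range). The LKB1 points lie above the untreated points in both Cdkn1a panels, while the groups overlap in the other 8 panels.

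Mdm2, the p53-induced ligase that marks p53 for degradation, differed little. Its brightest probe read 9.47, 9.29, 9.31 and 9.62 in the untreated mice. In the LKB1 mice it ranged from 9.45 to 9.74 with a median of 9.64. The groups overlapped, LKB1 replicate 4 lying below untreated replicates 1 and 4. The log2 difference was 0.20 ± 0.09 (SE), with a 95% interval from 0.003 to 0.40, or -0.00408 with array medians made equal, a scale on which the median of all genes lay at -0.157. The second Mdm2 probe differed by 0.13 ± 0.09 (SE), with an interval from -0.07 to 0.33 and overlapping groups. The third was not well above background on any array. The interval of the first probe ended at 1.32-fold. That of Cdkn1a began at 1.64-fold on its first probe but at 1.28-fold on its second, which overlaps the Mdm2 interval. The difference between the genes was not tested.

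Ccng1, another feedback gene of p53, was read by 3 probes, each detected on all 10 arrays. The brightest had 8.43, 8.30, 8.63 and 8.31 in untreated mice. It ranged from 8.40 to 8.61 with a median of 8.48 in LKB1 mice, inside the untreated span. The log2 differences were 0.08 ± 0.09, -0.01 ± 0.09 and 0.02 ± 0.09 (SE) on the 3 probes, or -0.10 on the brightest with array medians made equal (median of all genes -0.157). The highest upper bound of their 95% intervals was 0.27, or 1.21-fold. The Ccng1 probes did not follow each other across mice (r from -0.44 to 0.27 over 10 mice).

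Among the members, Btg2 and Phlda3 were below the detection limit of the array. Btg2, on 1 probe, and Phlda3, on 2 probes, were not well above background on any of the 10 arrays, and no difference is read from them. Zmat3, the RNA-binding member, was detected on all 10 arrays, at 6.58, 6.50, 6.68 and 6.36 in untreated mice. It ranged from 6.26 to 6.75 with a median of 6.53 in LKB1 mice, and the groups overlapped. Its log2 difference was -0.04 ± 0.11 (SE), with an interval from -0.28 to 0.20, and its sign differed between array sets, at 0.10 in set A and -0.18 in set B.

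Trp53inp1, the stress-induced cofactor of p53, had the widest spread of the members other than Cdkn1a. Its bright probe read 9.07, 8.84, 8.95 and 9.23 in untreated mice. In LKB1 mice it ranged from 8.65 to 9.32 with a median of 8.99, so that the LKB1 group held both the lowest and the highest liver. The log2 difference was -0.000365 ± 0.13 (SE), with an interval from -0.29 to 0.28. Set A gave 0.21 and set B gave -0.22. The dim probe, found in 3 untreated and 2 LKB1 livers, differed by -0.05 ± 0.10 (SE), which split into 0.17 in set A and -0.27 in set B. Both Trp53inp1 probes thus had opposite signs in the array sets, and the difference between the sets was not tested.

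**Figure D2:**
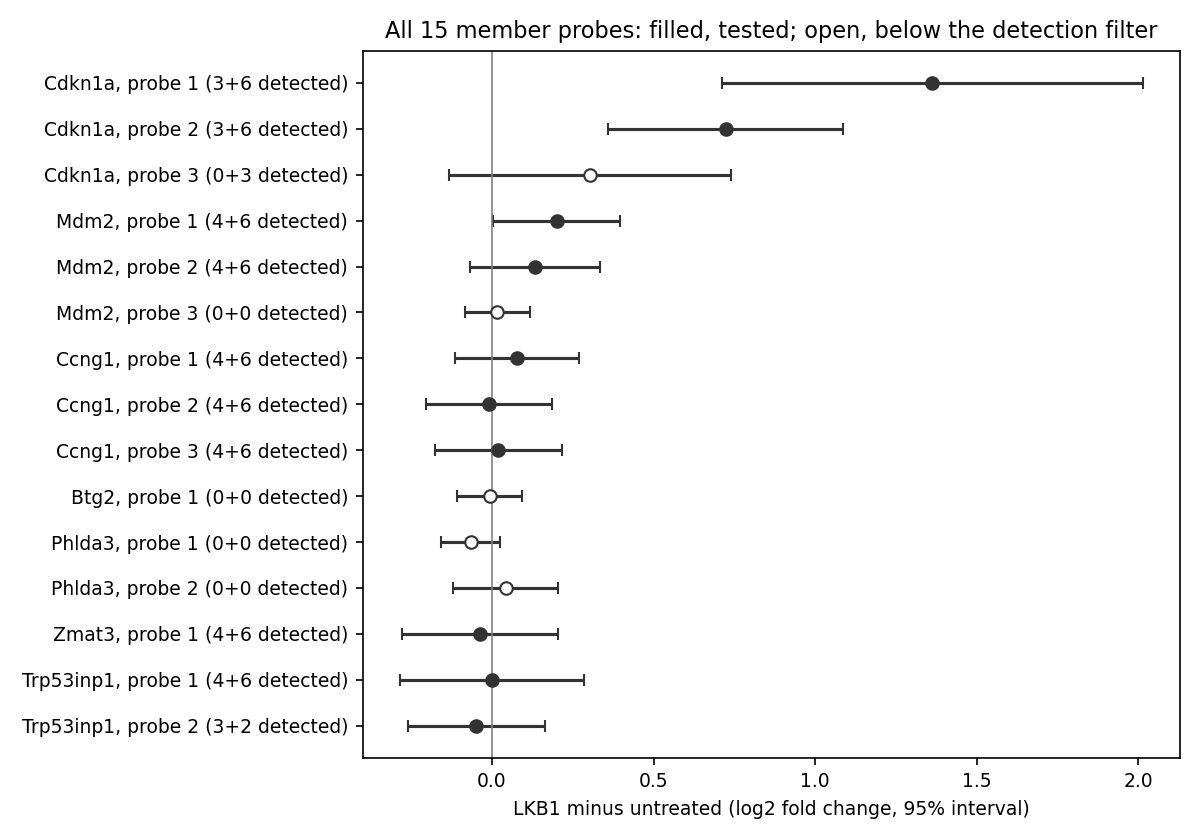
Log2 fold change, LKB1 minus untreated, of all 15 probes with 95% intervals (filled, tested; open, under the detection filter; labels give the arrays that detected the probe among the 4 untreated plus the 6 LKB1 arrays). Cdkn1a probe 1 lies at 1.36 and probe 2 at 0.72, and the 8 tested probes of the other genes lie between -0.05 and 0.20, or between -0.20 and -0.00408 once array medians are made equal. On that scale the median of all genes lies at -0.157.

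Of the 8 tested probes of the other member genes, 4 were higher and 4 lower in LKB1 livers, or 8 of 8 lower with array medians made equal, and 7 had a 95% interval that included 0. Within groups, no correlation of Cdkn1a with these genes from mouse to mouse passed its test. Residuals from the group means on the brightest probes gave Pearson's r = 0.28 with Trp53inp1 (exact permutation p = 0.529, n = 10), r = 0.18 with Mdm2 (exact permutation p = 0.591), r = -0.05 with Ccng1 (exact permutation p = 0.876) and r = -0.05 with Zmat3 (exact permutation p = 0.925). These 4 two-sided tests over all 17280 orders within groups had an adjusted p of 0.925 each. Spearman's rank correlation was 0.32, 0.15, 0.01 and 0.15 in the same order, with exact permutation p of 0.397, 0.700, 1 and 0.704 and adjusted p of 0.939, 0.939, 1 and 0.939. Without LKB1 replicates 1 and 6, the mice farthest from the median of Cdkn1a, r was 0.35, 0.21, 0.28 and 0.27. Each array set held 5 mice, too few for a value of its own. With the set means also removed, r was 0.55 with Trp53inp1, -0.11 with Mdm2, -0.39 with Ccng1 and 0.41 with Zmat3. Adjusted p ran from 0.286 to 0.716 (permutation within groups). These orders were not kept within sets, so the p-values of this fit are approximate and not exact.

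The wider set of p53 targets was evenly split. From a list of 50 further target genes, 30 were measured, 15 higher and 15 lower in LKB1 livers (9 and 21 with array medians made equal), with 0 passing the adjusted threshold (0% of 9725 genes passed). Their median log2 difference was 0.02, against -0.003 over all genes, and -0.14 against -0.157 with array medians made equal. At an unadjusted p under 0.05 (limma) there were 2 higher and 3 lower (16.7%). Of all genes 6.3% met that level in either direction, 3.21% higher and 3.1% lower. The 2 higher were Steap3 at 0.22 ± 0.09 (SE), with -0.23 on its other probe, and Tob1 at 0.28 ± 0.12 (SE). The 3 of smallest p were all lower: Gadd45a, induced by DNA damage and growth arrest, at 7.12 ± 0.25 (SD, n = 6) against 8.26 ± 0.51 (SD, n = 4), a log2 difference of -1.14 ± 0.20 (SE), with -1.12 on its other probe. Gadd45a passed the adjusted threshold with array medians made equal, at -1.32 (limma, adjusted p = 0.0211), and under none of the other 20 alternatives. With array medians made equal 15 of the 16803 probes passed. Sesn2, a stress-induced inhibitor of mTORC1 signalling, differed by -0.46 ± 0.12 (SE). Bbc3, which encodes the p53-induced apoptosis protein PUMA, differed by -0.49 ± 0.19 (SE), and its dimmer probes gave -0.25 and -0.21. Gadd45a and Cdkn1a thus stood at opposite ends of the p53 targets, each with no overlap between the groups on its brightest probe, as in 1.37% of all probes.

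Genes that control p53 were close to even. Of 33 regulators and cofactors listed, 22 were measured, 13 higher and 9 lower with a median log2 difference of 0.02. Equal array medians turned this to 2 higher and 20 lower, with a median of -0.153 against -0.157 over all genes. In the main fit 0 passed the adjusted threshold (limma). At an unadjusted p under 0.05 there was 1 (4.5%, against 6.3% of all genes). This was Kat5, the acetyltransferase TIP60 that acts on p53 and ATM, at 0.25 ± 0.09 (SE). The p53 and histone chaperone Daxx was at 0.18 ± 0.09 (SE). The deubiquitinase Usp7, which stabilises MDM2 and p53, was at 0.13 ± 0.09 (SE), and its dimmer probes read 0.15 and -0.04.

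Genes of the cell cycle, on which p21 acts, were split. Of 33 listed, 18 were measured, 8 higher and 10 lower with a median of -0.03. Equal array medians gave 3 higher and 15 lower, with a median of -0.157, the same as over all genes. In the main fit 0 passed the adjusted threshold (limma). E2f1, an activator of S phase genes, was at -0.30 ± 0.11 (SE) and Mcm7, of the replicative helicase, at 0.40 ± 0.17 (SE), with -0.03 on its other probe. These were the 2 with an unadjusted p under 0.05, or 11.1% against 6.3% of all genes. Cdk2, a kinase that p21 inhibits, was at -0.19 ± 0.10 (SE), while its dimmer probes read -0.13, 0.04 and 0.16.

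Among the BCL2 family, which sets the threshold for apoptosis, 12 of 13 genes were measured, 4 higher and 8 lower with a median of -0.03. Equal array medians gave 1 higher and 11 lower, with a median of -0.18 against -0.157 over all genes. In the main fit 0 passed the adjusted threshold (limma). There were 4 with an unadjusted p under 0.05 (33.3%), all lower, where 6.3% of all genes met that level and 3.1% were lower. The pro-apoptotic BH3 genes Bik, Bmf and Bid had the smallest p, at -0.77 ± 0.18, -0.64 ± 0.27 and -0.21 ± 0.09 (SE). Bik was at 7.03 ± 0.39 (SD, n = 6) in LKB1 and 7.79 ± 0.18 (SD, n = 4) in untreated livers, with overlapping groups.

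**Figure D3:**
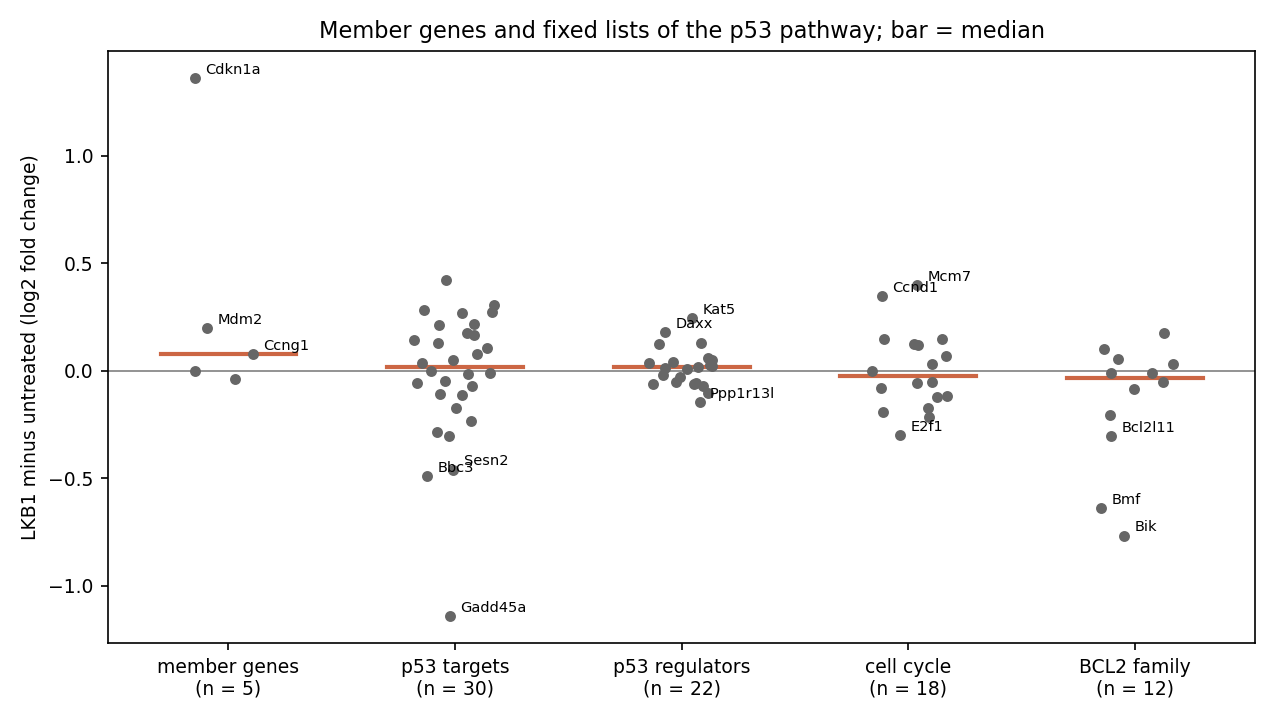
Log2 fold change, LKB1 minus untreated, of the 5 measured member genes and of the genes of 4 lists (1 point per gene at its brightest tested probe, bar at the median, vertical axis in log2 units). Cdkn1a at 1.36 and Gadd45a at -1.14 lie farthest from 0, and the list medians lie between -0.03 and 0.02, or between -0.18 and -0.14 with array medians made equal. On that scale the median of all genes lies at -0.157.

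Clock genes and Kupffer cell markers are given beside Cdkn1a. Of 15 measured clock genes, 11 were lower and 4 higher, with a median of -0.41 and 0 past the adjusted threshold (limma). At an unadjusted p under 0.05 there were 10 (66.7%), 7 lower and 3 higher. Of all genes 6.3% met that level, 3.1% lower and 3.21% higher. Nr1d2 and Tef, at -0.61 ± 0.12 and -0.95 ± 0.19 (SE), and Ciart, at -1.33 ± 0.33 (SE), had the smallest p in the list. The 3 higher at an unadjusted p under 0.05 (limma) were Npas2 at 0.57 ± 0.20, Arntl at 0.48 ± 0.20 and Clock at 0.33 ± 0.12 (SE). Clock read 0.58 on its other probe, and Npas2 was detected in only 1 untreated liver. With array medians made equal Dbp, Ciart and Tef passed the adjusted threshold, among 15 of the 16803 probes that did. Dbp, a clock-driven transcription factor, was at 11.40, 12.58, 12.19 and 12.12 in untreated mice and at 11.39, 10.61, 9.66, 10.84, 7.96 and 9.43 in LKB1 replicates 1, 2, 4, 5, 6 and 7. LKB1 replicate 6 had the lowest Dbp and the highest Cdkn1a, and LKB1 replicate 1 the highest Dbp and the lowest Cdkn1a of its group. Within groups Dbp and Cdkn1a gave r = -0.72 (exact permutation p = 0.0543, adjusted over 5 relations 0.272, n = 10) and a Spearman rank correlation of -0.33 (exact permutation p = 0.380, adjusted 0.880), a pair chosen after its values were seen. Without LKB1 replicates 1 and 6, r was 0.05, so the relation rests on those 2 mice. Kupffer cell markers were higher in 8 of 8 measured genes, with a median of 0.27. With array medians made equal they were higher in 7 of 8, with a median of 0.09 against -0.157 over all genes. Of these markers 0 passed the adjusted threshold and 2 (25%) had an unadjusted p under 0.05, both higher, against 3.21% of all genes (limma). Their summed level, on the log2 scale, spanned 11.09 to 11.92 in untreated and 11.62 to 12.11 in LKB1 livers, which overlap, and the marker Cd5l was not well above background on any array. The medians of 7 other lists (neutrophil, endothelial, stellate, bile duct, T, B and red cell markers) lay between -0.17 and 0.20, or between -0.31 and 0.13 with array medians made equal, where the endothelial median turned from 0.07 to -0.09 and the stellate median from 0.02 to -0.18. In these 7 lists 0 genes had an unadjusted or an adjusted p under 0.05 (limma). The measured genes were 2 neutrophil, 5 endothelial, 5 stellate, 2 bile duct, 3 T cell, 1 B cell and 3 red cell markers. So few genes cannot show whether these cell types differed. Hepatocyte markers were higher in 5 of 8 genes, with a median of 0.02, and in 1 of 8 with a median of -0.16 when array medians were made equal. Of the hepatocyte markers 1, Serpina1c at 0.28 ± 0.12 (SE), had an unadjusted p under 0.05, and 0 passed the adjusted threshold (limma). The part of the clock and of Kupffer cells in the Cdkn1a difference was not tested.

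**Figure D4:**
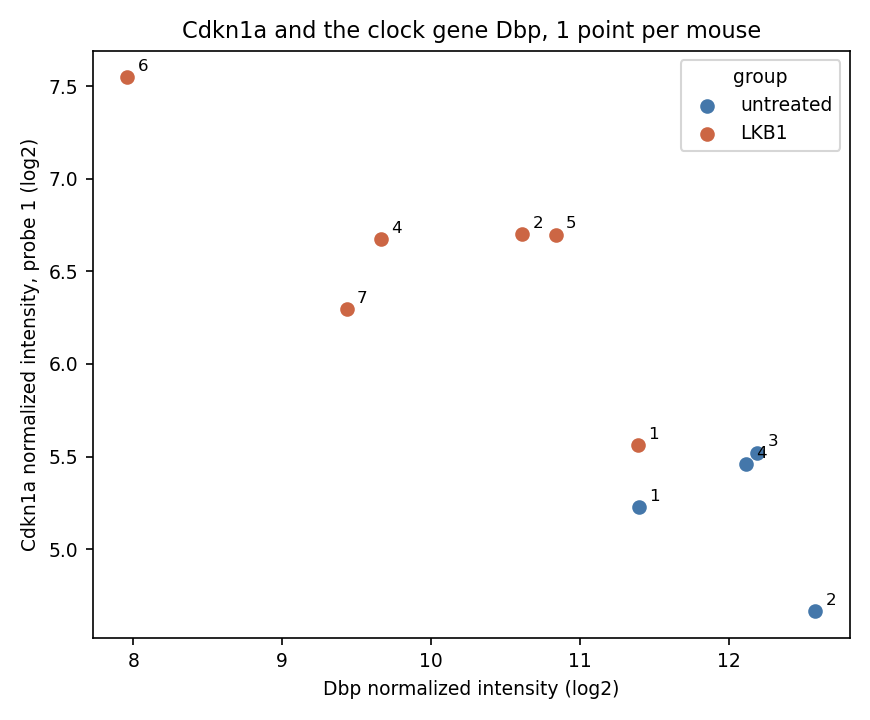
Normalized log2 intensity of Cdkn1a (vertical, probe 1) against the clock gene Dbp (horizontal), 1 point per mouse with its replicate number, untreated blue and LKB1 orange. LKB1 replicate 6 lies at 7.96 and 7.55, and LKB1 replicate 1, at 11.39 and 5.56, lies next to the untreated mice.

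The genes whose pattern was most like that of Cdkn1a were taken from 9497 other named genes. Within groups these were Rpl37, a ribosomal protein, Slc30a10, a manganese exporter, Selenoi, an enzyme of phosphatidylethanolamine synthesis, Rnd2 and Dhrs3, a retinal reductase, with r from 0.92 to 0.94 over 10 mice and from 0.86 to 0.91 without LKB1 replicate 6. Their own log2 differences between the groups were 0.02, 0.34, 0.14, -0.08 and 0.15. On the plain values, which also carry the group difference, the nearest were Krtap19-5, Cstf1, Asap2, Med7 and Slc30a10, with r from 0.91 to 0.93, and Asap2, an ARF GTPase-activating protein, had the largest group difference among them at 0.86. Taken as the highest of so many correlations over 10 mice, these values are a description only.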

How the data were processed

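Liver RNA was labelled and read on Illumina bead arrays (the labels' protocols). Per the file headers, each probe has an average intensity, which is linear and, as its mean differs between arrays, not normalized between them. Each intensity comes with a deposited detection p-value, and no source says whether background was subtracted. The authors' processed values, read as log2 from their match with each array's intensities (the deposited table names no base), had a median of 4.36 in every column, and the submitters' processing notes name lumi. All per-sample columns matched a title, leaving 0 unused.

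Intensities were corrected by normexp, using the detection p-values to estimate background, with an offset of 16, and arrays quantile-normalized on the log2 scale (neqc, limma 3.58.1, R 4.3.3). Kept probes had a detection p under 0.05 on 4 or more arrays. Each gene's value is that of its brightest kept probe (mean over 10 arrays). Groups were compared with lmFit and eBayes, two-sided, no covariate, with Benjamini-Hochberg adjustment over all 16803 kept probes; intervals are at 95%. Differences of probes that were not kept come from the same fit on all 45281 probes. The number of arrays limits the precision. Each array was taken as 1 animal, since the design text gives numbers of mice. The title of 1 sample ends in LKB1, which may be the gene or a sample number, and it was taken as replicate 1. Gene symbols are those of the platform annotation, which gives 34885 probes 1 symbol and 18 several and does not list 10378; 34807 matched the RefSeq gene table of GRCm38.p6 by Entrez number. The files name no genome build, and coordinates belong to the RefSeq promoter table alone.

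Members, gene lists and tests were chosen with earlier results of these data known. Named genes were all members, the 3 genes of smallest p in each list, and the 5 genes most like Cdkn1a in each of 2 ways, leaving out clone and predicted names. The higher p53 targets and clock genes with an unadjusted p under 0.05 (limma) were named after their values were seen. Dbp was set to be shown beside Cdkn1a, and their correlation was added after the values were seen. Array sets came from average-linkage clustering of Spearman correlations over the 24495 probes detected on no array (mean 0.522 within sets and 0.482 between, a difference that the clustering itself favours). Fits and correlations were tested on simulated data. The alternatives were no background correction, an offset of 50, equal array medians, the authors' values, 2 other detection filters, blocks by array set and by replicate number, each array set alone, array weights, the mean of a gene's probes, and leaving out each mouse.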

Additional observations from a re-analysis of the deposited data

Results flagged for a closer look

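In LKB1 replicate 5 the dimmest Ccng1 probe stood apart from the rest of its group, at a log2 intensity of 6.94 against 7.19 to 7.31 in the other 5 LKB1 mice. The gap to the nearest mouse was 0.676 of the group's range, above the 95% critical value of Dixon's test for 6 samples. The other Ccng1 probes did not show it: on the brightest probe LKB1 replicate 5 was the highest of its group, at 8.61. Of 30 groups of values examined over the 15 probes 1 met the criterion, and chance meets it in about 1 group in 20.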

How the results depend on the processing

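Cdkn1a was higher in LKB1 livers under all 21 alternatives run, by 0.878 (offset of 50) to 1.367 (array set A alone) and by 1.168 to 1.566 with 1 mouse left out. Requiring detection on all 10 arrays removed both Cdkn1a probes, so it has no value there. No member probe was called under any alternative run. The number of probes called (limma) was 15 with array medians made equal, 4 listed genes (Gadd45a, Dbp, Ciart and Tef) among them, and 0 to 1 with 1 mouse left out, the 1 being Cxcl1 without LKB1 replicate 2, named after its value was seen; the other alternatives called 0. On the scale with equal array medians all genes lay at -0.157, and Mdm2 was at -0.00408 and Ccng1 at -0.104. The within-group correlations of Cdkn1a with Ccng1 and Zmat3 changed sign between alternatives, that with Mdm2 kept its sign in 13 of 14, and those with Trp53inp1 (positive) and Dbp (negative) kept theirs in 14 of 14. Leaving out both LKB1 replicates 1 and 6, which is not among these 14, gave 0.05 for Dbp. With array medians made equal the correlations were 0.1685 for Ccng1 and 0.1301 for Zmat3. With array set means removed they were -0.1099 for Mdm2 and 0.4075 for Zmat3. With 1 mouse left out they ran from -0.3183 to 0.1509 for Ccng1, from -0.1718 to 0.239 for Zmat3, from 0.00634 to 0.287 for Mdm2 and from 0.167 to 0.438 for Trp53inp1. None passed the adjusted threshold (permutation within groups), the smallest adjusted p being 0.286 for the member genes and 0.222 for Dbp. The 0.286 comes from the fit with array set means removed. Its orders were not kept within sets, so it is approximate. The cause of these changes was not tested. The replicate numbers 1, 2 and 4 occur in both groups, and deviations of same-numbered mice correlated at 0.146, 0.239 and -0.166. The LKB1 mouse closest in deviations had the same number for untreated replicate 1, but not for replicates 2 and 4. Untreated replicate 4 and LKB1 replicate 4 lie in different array sets. So few pairs cannot show whether the mice were paired. With the replicate number as a block, which in effect leaves only the 6 mice of shared number, Cdkn1a differed by 1.196 and 0 probes were called. Signal over background limits Cdkn1a, Btg2 and Phlda3, since these lay near or below detection in untreated livers.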
